A study of Mus musculus with 9 samples.

Results

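The MHC class I presentation pathway and its transactivator Nlrc5 were followed through CD11b+ bone marrow cells, the myeloid cells of the marrow, in 9 male C57BL/6 mice. The 10 genes were the heavy chain genes H2-K1, H2-D1 and H2-T24, the light chain gene B2m, the peptide transporter and loading genes Tap1, Tap2 and Tapbp, the immunoproteasome subunit genes Psmb8 and Psmb9, and Nlrc5. They were taken by name from the 23337 genes counted in every library, and all 10 were among the 12553 genes that passed the filter on low counts. The set was chosen by the levels of these genes across the 3 groups of mice, so those levels, and every fold change and adjusted p made from them, are given as a description and not as independent evidence. The 3 groups of 3 mice received vehicle (PBS), extracellular vesicles of enzalutamide-resistant CWR-R1 prostate cancer cells (EnzR EVs), or EnzR EVs + HDL NPs. Vehicle or EVs (10 µg of EV protein) were given in 3 tail vein injections of 100 µl, 48 h apart, and the marrow was collected 24 h after the last. HDL NPs are synthetic particles with a gold core, apolipoprotein A-1 and phospholipids that resemble high-density lipoprotein. They were injected in turn with the EVs, the first dose on the day before the first EVs, at 1 µM by the sample labels and 100 µM by the methods of the study. Mice were 3 to 6 weeks old. The EVs came from a single human cell line, every mouse given HDL NPs also received EVs, and there was 1 library per mouse.

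MHC class I molecules show peptides from inside the cell to CD8 T cells and to natural killer cells. Proteins are cut by the proteasome, whose catalytic subunits are exchanged for Psmb8, Psmb9 and Psmb10 in cells that see interferon. The TAP transporter, a dimer of Tap1 and Tap2, carries the peptides into the endoplasmic reticulum, where tapasin (Tapbp) holds TAP next to the empty heavy chain and its light chain, beta-2 microglobulin (B2m). Nlrc5 enters the nucleus and acts with the factors bound at class I promoters, as Ciita does at class II promoters.

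Of the 10 genes, H2-T24 and Nlrc5 had the clearest differences between groups. H2-T24 was at 85.9 to 102.6 CPM (read counts relative to library size, scaled by the TMM method of edgeR) in PBS mice and at 146 to 160.3 CPM in all 6 mice given EnzR EVs, with or without HDL NPs. Nlrc5 averaged 31.5 CPM in PBS mice, 52.4 in EnzR EV mice and 91.2 in EnzR EVs + HDL NPs mice. The classical heavy chains H2-K1 and H2-D1, which are far more abundant, overlapped between the groups in every comparison. Tap2, Tapbp and B2m spread widely within the PBS and EnzR EV groups.

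**Figure D1:**
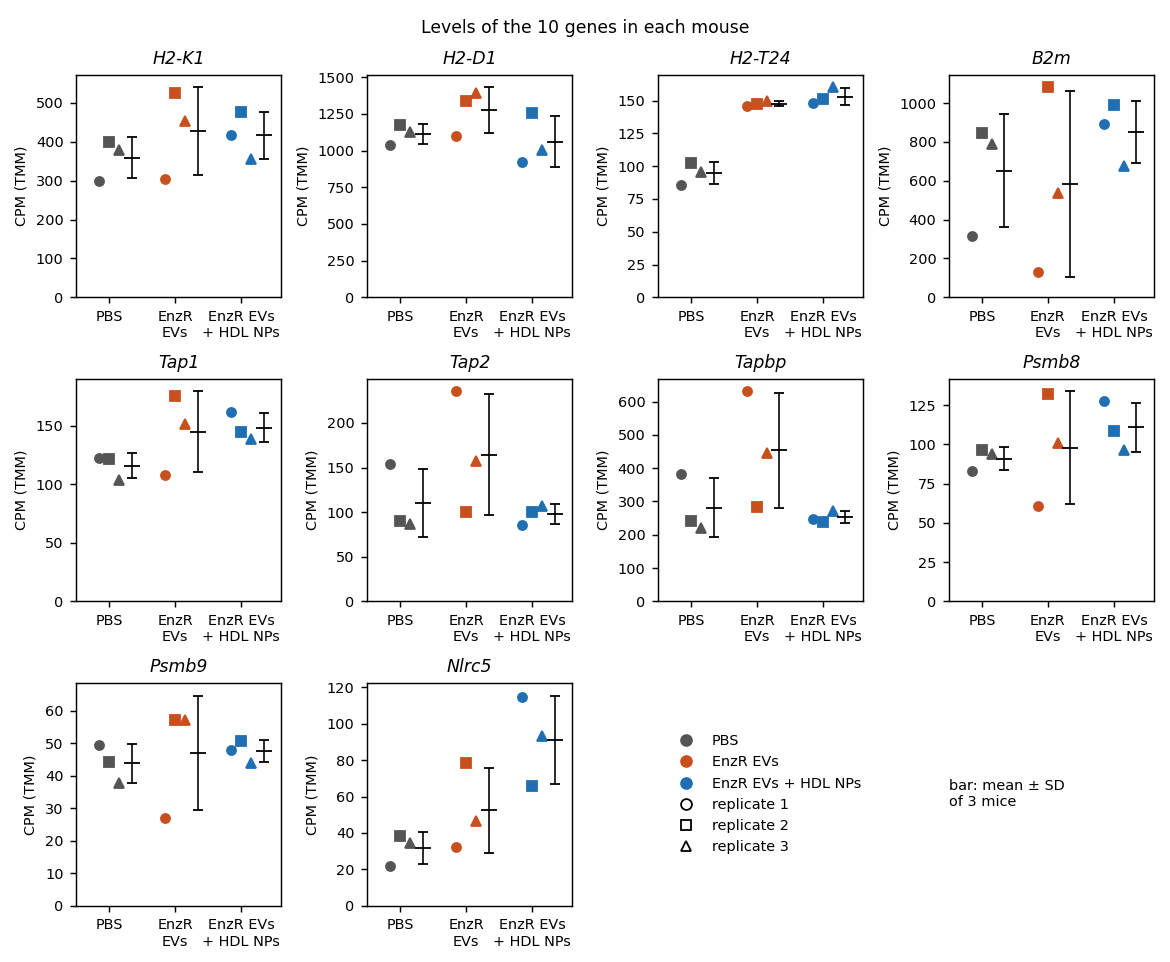
Level of each of the 10 genes in each mouse, in TMM-scaled CPM on linear axes from 0, by group; marker shapes give the replicate number, and the black bars are the mean ± SD of 3 mice. H2-T24 of all 6 EV-injected mice lies above the PBS mice, and Nlrc5 does so in the EnzR EVs + HDL NPs mice, while the EnzR EV group of Tap2, Tapbp, B2m, Psmb8 and Psmb9 is spread widely.

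Total counts per library ranged from 2575776 to 18110561, so that 3 counts correspond to between 0.160 and 1.65 CPM. The share of counts on Rn45s, the precursor of ribosomal RNA, was 42.7% in EnzR EVs replicate 1, 20.3% in PBS replicate 1 and 14.2% in EnzR EVs replicate 3, against 0.657% to 2.87% in the other 6 libraries. EnzR EVs replicate 1 also stood apart, with a highest correlation of 0.919 with any other library. Itgam, which encodes CD11b, was at 1389 to 2006 CPM in the 9 libraries, Csf3r, the receptor for granulocyte colony-stimulating factor, at 371 to 982 CPM, and the neutrophil protein gene S100a8 at 1746 to 38307 CPM. Ly6g has no row in the counts. The ranges of summed markers of other cells overlapped between the groups. The 8 B lineage markers summed to 16.3 to 24.8 CPM in PBS mice, 9.37 to 21.9 in EnzR EV mice and 7.75 to 22.1 in EnzR EVs + HDL NPs mice. The 8 measured T and NK markers summed to 50.2 to 62.3, 54.1 to 79.6 and 30.6 to 57.1 CPM in the same order, the 8 dendritic cell markers to 52.3 to 59.0, 52.8 to 71.9 and 52.5 to 61.8, the 8 measured marrow macrophage markers to 538 to 1016, 432 to 583 and 479.8 to 649.98, the 5 measured erythroid markers to 46.5 to 57.6, 15.5 to 48.8 and 19.4 to 62.3, the 6 platelet and megakaryocyte markers to 26.9 to 101.4, 30.9 to 74.7 and 36.9 to 54.2, and the 8 endothelial and stromal markers to 37.3 to 105, 51.6 to 93.3 and 61.4 to 77.0. Against PBS, the tested B lineage markers had a positive log2 fold change in 0 of 7 with EnzR EVs and 0 of 7 with both agents (medians -0.98 and -0.69), those of T and NK cells in 1 and 0 of 5 (-0.41 and -0.35), those of dendritic cells in 3 and 3 of 8 (-0.29 and -0.18), those of macrophages in 1 and 0 of 8 (-0.71 and -0.57), erythroid markers in 0 and 0 of 4 (-0.88 and -0.56), platelet and megakaryocyte markers in 2 and 0 of 6 (-0.24 and -0.61) and endothelial and stromal markers in 2 and 1 of 7 (-0.44 and -0.24). With EnzR EVs, the macrophage genes Cd5l (24.2 to 33.5 against 46.0 to 83.6 CPM) and Vcam1 (172 to 194 against 206 to 401 CPM) were lower than PBS without overlap. The B lineage gene Pax5 was too, at 0 to 0.16 against 0.63 to 0.88 CPM and at most 11 counts. All these Pax5 levels were under the 1.65 CPM of 3 counts in EnzR EVs replicate 1. Itgax and Bst2 of the dendritic cell list were higher without overlap. Bst2 is also among the interferon-stimulated reference genes listed below. With both agents, Cd5l, the macrophage complement gene C1qb (33.3 to 43.5 against 46.9 to 68.9 CPM) and Pax5 (0.12 to 0.23 CPM) were lower than PBS and Itgax was higher. Between the EV-injected groups, C1qb (45.9 to 191 CPM with EnzR EVs), the cytotoxic granule gene Nkg7 (16.4 to 29.4 against 35.7 to 66.9 CPM) and the myeloid gene Mpo (439 to 1048 against 1065 to 1673 CPM) were lower with both agents, and Cd4, Vcam1 and Mrc1 were higher. There, 4 of 7 B lineage and 4 of 5 T and NK markers were positive (medians 0.16 and 0.07). So were 5 of 8 dendritic cell and 5 of 8 macrophage markers (0.09 and 0.16). Erythroid markers were positive in 4 of 4 (0.24). For platelet and megakaryocyte markers it was 3 of 6 (-0.24), and for endothelial and stromal markers 5 of 7 (0.22). The myeloid genes Elane and Csf1r were also lower with both agents than with PBS. Of the 14 tested myeloid markers, 4 were positive with EnzR EVs against PBS and 8 with both agents (medians -0.19 and 0.04). Between the EV-injected groups 11 of the 14 were positive, with a median of 0.19. Over all tested genes, the shares higher and lower without overlap were 3.43% and 4.52% with EnzR EVs against PBS, 6.96% and 6.21% with both agents against PBS, and 8.99% and 8.58% with both agents against EnzR EVs. In these lists 0 markers passed the adjusted threshold by edgeR or DESeq2. At an unadjusted p under 0.05 by edgeR there were 2, 1 and 0 of the B lineage markers for EnzR EVs against PBS, both agents against PBS and both agents against EnzR EVs, then 1, 0 and 1 of the T and NK markers, 2, 1 and 0 of the dendritic cell markers, 3, 2 and 1 of the macrophage markers, 1, 0 and 0 of the erythroid markers, 0, 0 and 1 of the 14 myeloid markers and 0 of the platelet, endothelial and stromal markers, where the shares of all tested genes were 3.47%, 2.13% and 10.6%. The part of these cells in the results was not tested. In bulk RNA, fewer cells of a type and less RNA per cell cannot be told apart.

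The first comparison asked how marrow myeloid cells differ after EnzR EVs. For EnzR EVs against PBS, 9 of the 10 genes had a positive log2 fold change, with a median of 0.29, where the median of all 12553 tested genes was -0.03. No gene passed an adjusted p of 0.05 by the quasi-likelihood test of edgeR, so 0 of the 10 were called and the share of all tested genes called was 0%. At an unadjusted p under 0.05 by edgeR there were 3 of the 10, H2-T24, Tapbp and Nlrc5, against 3.47% of all tested genes. DESeq2 called 1 of the 10, H2-T24, against 0.0876% of all tested genes. The mice of both groups did not overlap for 1 of the 10, H2-T24, which was higher with EVs, against 3.43% of all tested genes, and for 0 of the 10 in the lower direction, against 4.52%. With the replicate number as a block, edgeR called 1 of all tested genes and 0 of the 10, and the median of the 10 was 0.27. Of the 10 genes, 6 were higher with EVs in all 3 same-numbered pairs of mice, against 14.7% of all tested genes: H2-T24, H2-K1, H2-D1, Tap2, Tapbp and Nlrc5. The labels do not say that same-numbered mice were paired.

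The next comparison asked the same of mice given both agents. For EnzR EVs + HDL NPs against PBS, 7 of the 10 genes had a positive log2 fold change, with a median of 0.25 against -0.01 over all tested genes. By edgeR 0 of the 10 passed an adjusted p of 0.05, again with a share of 0% over all tested genes, and 2 of the 10, H2-T24 and Nlrc5, had an unadjusted p under 0.05, against 2.13%. DESeq2 called the same pair, 2 of the 10, against 0.0637% of all tested genes. H2-T24, Tap1 and Nlrc5 were higher without overlap, 3 of the 10 against 6.96% of all tested genes, and 0 of the 10 were lower without overlap, against 6.21%.

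The last comparison asked what HDL NPs changed in mice that also received EVs. For EnzR EVs + HDL NPs against EnzR EVs, 5 of the 10 genes were positive, with a median log2 fold change of 0.003 against 0.03 over all tested genes. By edgeR 0 of the 10 passed an adjusted p of 0.05, with 0% over all tested genes. At an unadjusted p under 0.05 were 3 of the 10, Nlrc5 on the higher side and Tap2 and Tapbp on the lower, against 10.6% of all tested genes. DESeq2 called 0 of the 10, against 0.00797% of all tested genes. Tapbp was lower without overlap, 1 of the 10 against 8.58% of all tested genes, and 0 of the 10 were higher without overlap, against 8.99%. The 3 comparisons share groups of mice, so their values are not independent of each other.

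**Figure D2:**
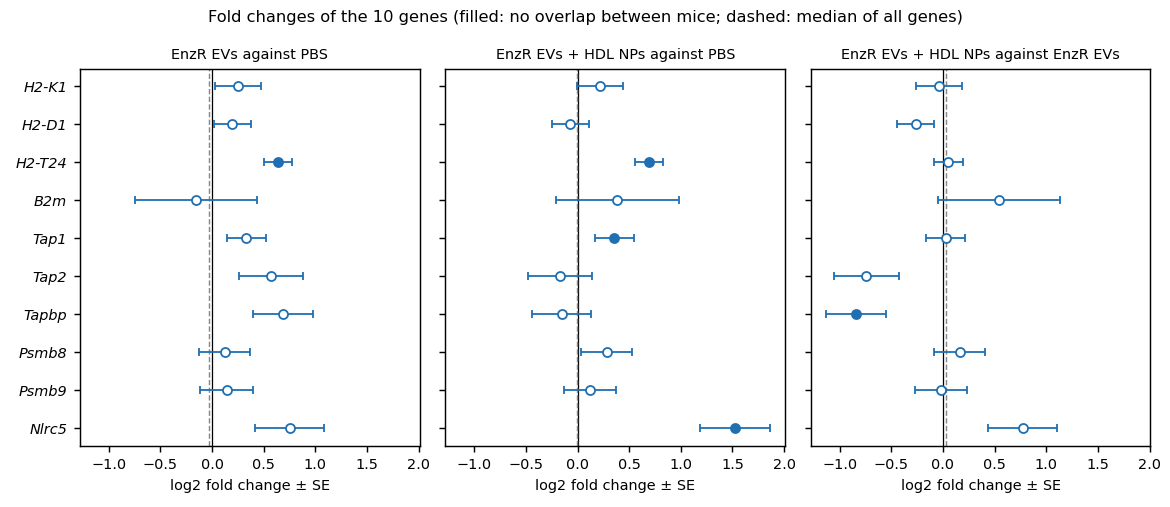
Log2 fold change of each of the 10 genes with its standard error from the fit over 9 libraries, in the 3 comparisons; filled points mark genes whose mice did not overlap between the groups, and the dashed line is the median of all tested genes. H2-T24 lies at 0.64 and 0.69 against PBS and at 0.05 between the EV-injected groups, and Nlrc5 at 0.75, 1.52 and 0.77.

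H2-K1 and H2-D1 encode the classical class I heavy chains of the C57BL/6 mouse. H2-K1 (chr17:33996017-34000347, minus strand, GRCm38) and H2-D1 (chr17:35262730-35267499, plus strand) lie in the MHC, and B2m lies outside it (chr2:122147686-122153083, plus strand). Their promoters are shown because class I genes carry a conserved upstream module, and the sequences can be read side by side. Each line below is 200 bases that end just before a transcription start of RefSeq (GRCm38.p6), written 5′ to 3′ on the strand of the gene, at chr17:34000348-34000547 for H2-K1, chr17:35262894-35263093 for H2-D1 and chr2:122147487-122147686 for B2m. Capitals mark matches, on either strand, to the NF-kB core GGGATTCCC, the CRE-like letters TGACG, the CCAAT box (ATTGG on the other strand) and the core of the interferon-stimulated response element, GAAANNGAA.
H2-K1: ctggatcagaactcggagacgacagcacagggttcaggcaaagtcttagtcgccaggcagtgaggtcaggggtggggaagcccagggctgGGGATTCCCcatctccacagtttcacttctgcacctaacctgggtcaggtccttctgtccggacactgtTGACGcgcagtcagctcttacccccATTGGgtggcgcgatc
H2-D1: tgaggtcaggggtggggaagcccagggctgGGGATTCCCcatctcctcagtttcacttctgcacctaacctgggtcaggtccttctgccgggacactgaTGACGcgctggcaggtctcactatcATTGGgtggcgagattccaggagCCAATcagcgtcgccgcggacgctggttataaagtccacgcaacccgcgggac
B2m: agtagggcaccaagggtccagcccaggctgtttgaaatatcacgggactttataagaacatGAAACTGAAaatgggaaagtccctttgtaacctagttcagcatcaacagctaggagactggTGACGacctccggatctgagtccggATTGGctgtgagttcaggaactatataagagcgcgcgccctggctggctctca

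In all 3 sequences TGACG was followed by ATTGG with 20 bases between them. That spacing occurred in 18 of 32817 upstream windows of RefSeq genes (0.0548%), belonging to 15 genes, among them H2-K1, H2-D1, B2m and the class I gene H2-M3; the search was made after the sequences were seen. In H2-K1 and H2-D1 the NF-kB core began 69 bases ahead of TGACG. This core was found in 0.302% of all windows of 250 bases, TGACG in 17.7%, CCAAT in 33.8% and GAAANNGAA in 7.12%. The first base of the B2m match to GAAANNGAA lay 139 bases before the start. RefSeq windows were found for 7 of the 10 genes, and H2-T24, Tap2 and Nlrc5 had none in the table used. A match is a description of letters and not of a bound factor. Only exact matches were marked, so variants of an element stay in lower case. H2-K1 and H2-D1 had 0 exact matches to GAAANNGAA, which does not show that they lack an interferon-stimulated response element.

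**Figure D3:**
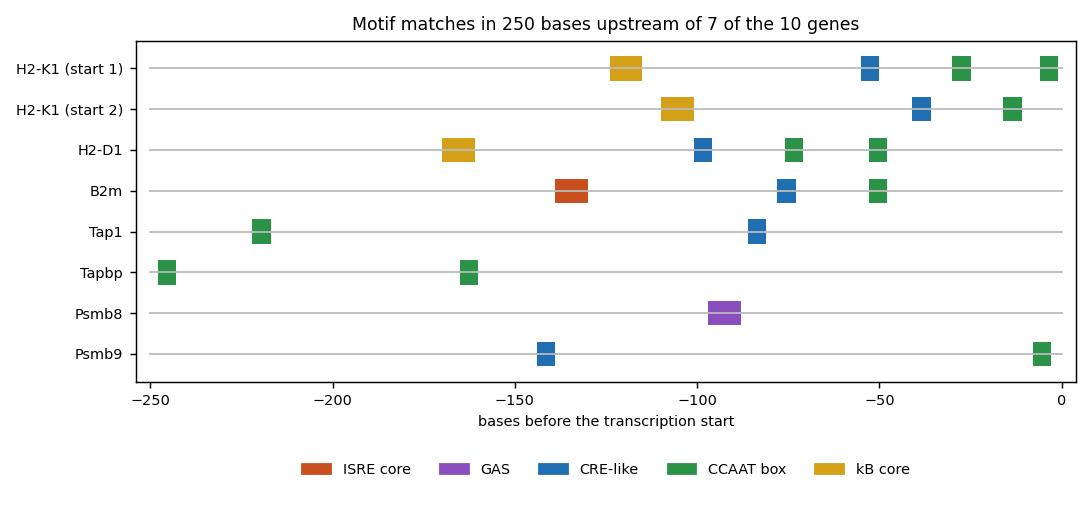
Position of motif matches, on either strand, in the 250 bases before each RefSeq transcription start of 7 of the 10 genes; H2-K1 has 2 starts, and colours give the motif. H2-K1, H2-D1 and B2m share a CRE-like match followed by a CCAAT box, H2-K1 and H2-D1 also share the NF-kB core (kB core), and Psmb8 has the only match to the interferon-gamma activated site (GAS).

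H2-D1 had 1037, 1175 and 1127 CPM in the PBS mice, 1097, 1335 and 1394 CPM in the EnzR EV mice, and 921, 1257 and 1007 CPM in the EnzR EVs + HDL NPs mice. The groups overlapped, with log2 fold changes of 0.20 ± 0.18 (SE) for EnzR EVs against PBS, -0.07 ± 0.18 for EnzR EVs + HDL NPs against PBS and -0.27 ± 0.18 for EnzR EVs + HDL NPs against EnzR EVs. H2-K1 had 299.4, 398 and 379 CPM with PBS, 303, 525 and 454.5 CPM with EnzR EVs, and 418, 476 and 356 CPM with both agents. Its groups overlapped too, with log2 fold changes of 0.25 ± 0.22, 0.21 ± 0.22 and -0.04 ± 0.22 in the same order of comparisons. Leaving out each library in turn gave H2-K1 0.11 to 0.45 for EnzR EVs and 0.099 to 0.32 for both agents, each against PBS. For H2-D1 it gave 0.12 to 0.30 for EnzR EVs against PBS and -0.43 to -0.18 between the EV-injected groups. Of the 75-base stretches of the H2-D1 transcript, 6.90% are also found in transcripts of other genes, most of them in H2-Q1, and of H2-K1 1.55%, so reads from those stretches could not be assigned to a single gene.

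B2m, the light chain that every class I molecule needs to leave the endoplasmic reticulum, had the widest spread of the 10 in the PBS and EnzR EV groups. Its level was 317.5, 846 and 791 CPM in the PBS mice, 128, 1082 and 539 CPM in the EnzR EV mice and 894, 988 and 674 CPM in the EnzR EVs + HDL NPs mice. The lowest values were those of EnzR EVs replicate 1, PBS replicate 1 and EnzR EVs replicate 3, the 3 libraries with the most Rn45s, in that order. Log2 fold changes were -0.16 ± 0.59, 0.39 ± 0.59 and 0.54 ± 0.59, none larger than its standard error. With the 2 libraries of lowest total left out, PBS replicate 1 and EnzR EVs replicate 1, they were -0.01, 0.06 and 0.07. Per kilobase of the longest coding transcript, B2m (758 ± 338 CPM per kb in PBS mice, SD, n = 3) and H2-D1 (529.6 ± 33.4) were the highest of the 10 levels, and did not differ beyond that spread. H2-K1 followed at 222 ± 32.4 and H2-T24 stood at 43.4 ± 3.85 CPM per kb.

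H2-T24 (chr17:36005695-36020560, minus strand) is one of the nonclassical class I genes of the T region, which have few alleles. It had 85.9, 102.6 and 95.8 CPM in the PBS mice, 146, 147 and 149.8 CPM in the EnzR EV mice and 148, 151 and 160.3 CPM in the EnzR EVs + HDL NPs mice. Every EV-injected mouse was above every PBS mouse, and the EV-injected groups overlapped. H2-T24 was 1.56-fold higher with EnzR EVs (log2 fold change 0.64 ± 0.14) and 1.61-fold higher with EnzR EVs + HDL NPs (0.69 ± 0.14) than with PBS, with adjusted p = 0.928 and 0.9997 by edgeR and 0.00203 and 0.00168 by DESeq2. By unadjusted p it ranked 7th and 2nd of all tested genes by edgeR. Between the EV-injected groups the log2 fold change was 0.05 ± 0.14. Without PBS replicate 1, the PBS mouse with the lowest level and 20.3% Rn45s, the fold changes against PBS were 0.57 and 0.63. H2-T24 was at nearly the same level in EnzR EVs replicate 1, with 42.7% Rn45s and 266 counts of H2-T24, as in EnzR EVs replicate 2, with 1.15% and 2769 counts. The part of the Rn45s share in the levels of H2-T24 was not tested. Another T region gene, H2-T23, the gene of Qa-1, overlapped between the groups and had 118 to 134 CPM with PBS, 132 to 156 CPM with EnzR EVs and 131 to 152 CPM with both agents.

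Tap1 and Psmb9 lie head to head on chromosome 17 (Tap1 chr17:34187553-34197225, plus strand; Psmb9 chr17:34181987-34187764, minus strand). The interval between their RefSeq starts, 225 bases at chr17:34187331-34187555 (GRCm38.p6), is shown on the strand of Tap1, with the same capitals. The GENCODE model of Psmb9 reaches further, to 34187764, so it covers the interval and overlaps the start of Tap1.
Psmb9-Tap1 interval: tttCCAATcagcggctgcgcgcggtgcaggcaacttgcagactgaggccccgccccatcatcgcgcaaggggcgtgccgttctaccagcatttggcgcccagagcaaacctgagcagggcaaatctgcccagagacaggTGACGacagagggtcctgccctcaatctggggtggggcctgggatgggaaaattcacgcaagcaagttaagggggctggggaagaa

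It holds a CCAAT box 222 bases and TGACG 86 bases before the Tap1 start, and no match to GAAANNGAA or TTCNNNGAA. Tap1 had 122, 121.5 and 103 CPM in the PBS mice, 108, 175 and 151 CPM in the EnzR EV mice and 162, 144 and 138 CPM in the EnzR EVs + HDL NPs mice. All mice given both agents were above all PBS mice, by a log2 fold change of 0.36 ± 0.19, while EnzR EVs replicate 1 lay within the PBS range (0.33 ± 0.19 for EnzR EVs against PBS). Leaving out each library in turn gave Tap1 0.19 to 0.50 for EnzR EVs against PBS. Psmb9 had 49.6, 44.2 and 37.6 CPM with PBS, 26.9, 57.3 and 57.3 CPM with EnzR EVs and 48.1, 50.6 and 44.0 CPM with both agents. Its groups overlapped in all comparisons, with log2 fold changes of 0.14 ± 0.25, 0.12 ± 0.25 and -0.02 ± 0.25. Over the 9 libraries, log2 CPM of Tap1 and Psmb9 had a Pearson correlation of 0.78, as a description of libraries that also differ in depth and in Rn45s.

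Tap2 (chr17:34203527-34216321, plus strand) encodes the other chain of the peptide transporter, and Tapbp (chr17:33915899-33929292, plus strand) the tapasin that joins it to the heavy chain. Tap2 had 153.8, 90.3 and 86.3 CPM in the PBS mice, 235, 100.6 and 158 CPM in the EnzR EV mice and 85.9, 99.8 and 107 CPM in the EnzR EVs + HDL NPs mice. Tapbp had 384, 241 and 220.3 CPM, then 630.5, 285 and 444.5 CPM, then 248.5, 238 and 272 CPM in the same order. For both genes the 3 highest libraries were EnzR EVs replicate 1, EnzR EVs replicate 3 and PBS replicate 1, which are the 3 libraries with the most Rn45s. Tapbp in all mice given both agents was below all EnzR EV mice, by a log2 fold change of -0.84 ± 0.29 (adjusted p = 0.461 by edgeR), and was -0.54 with the 2 libraries of lowest total left out. Tap2 was at -0.74 ± 0.31 in that comparison, and at -0.41 without the 2 libraries. Against PBS, the fold changes with EnzR EVs were 0.57 ± 0.31 for Tap2 and 0.68 ± 0.29 for Tapbp, and with both agents -0.17 ± 0.31 and -0.15 ± 0.29. With each library left out in turn, the fold changes with EnzR EVs ranged from 0.24 to 0.88 for Tap2 and from 0.38 to 0.96 for Tapbp, lowest without EnzR EVs replicate 1 and highest without PBS replicate 1. Those with both agents were positive, at 0.15 and 0.13, without the 2 libraries. The part of the Rn45s share in these differences was not tested.

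**Figure D4:**
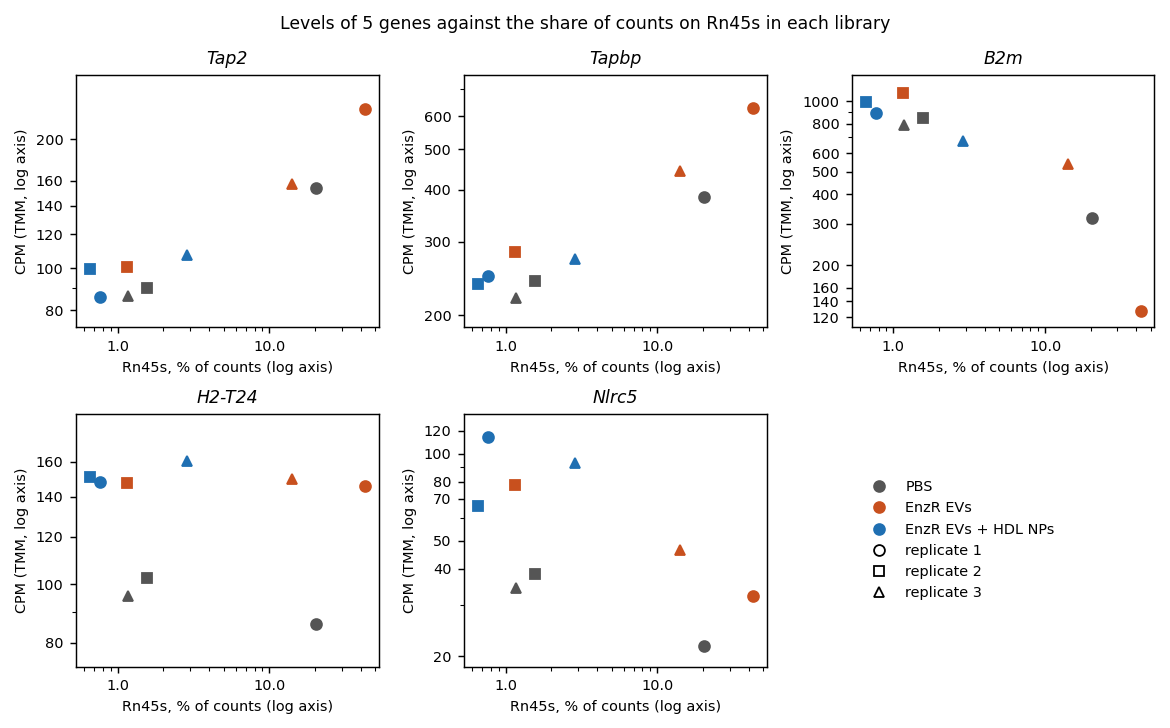
TMM-scaled CPM of 5 of the 10 genes against the percent of counts on Rn45s in each of the 9 libraries, both on log axes; colours give the group and shapes the replicate number. Tap2 and Tapbp are highest and B2m lowest in the 3 libraries with 14.2% to 42.7% Rn45s.

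Both subunits of the transporter are needed in equal number, and per kilobase the ratio of Tap2 to Tap1 was 1.08, 0.638 and 0.716 in the PBS mice, 1.88, 0.492 and 0.894 in the EnzR EV mice and 0.456, 0.594 and 0.666 in the EnzR EVs + HDL NPs mice. The only ratios above 1 were those of PBS replicate 1 and EnzR EVs replicate 1. PBS replicate 1 was 0.80 above the mean of its group mates in log2 CPM of Tap2 and 1.37 below in B2m, and EnzR EVs replicate 1 was 0.90 above and 2.58 below, so both libraries departed the same way within their own groups. Tap1 was 0.12 above the group mates in PBS replicate 1 and 0.60 below in EnzR EVs replicate 1, Psmb8 was 0.20 and 0.92 below, and Psmb9 was 0.28 above and 1.09 below.

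Psmb8 (chr17:34197721-34201454, plus strand), the immunoproteasome subunit that takes the place of Psmb5, had 82.9, 96.3 and 93.6 CPM in the PBS mice, 60.9, 132 and 100.7 CPM in the EnzR EV mice and 127, 109 and 96.3 CPM in the EnzR EVs + HDL NPs mice. The groups overlapped, with log2 fold changes of 0.12 ± 0.25, 0.28 ± 0.25 and 0.16 ± 0.25. Its upstream window holds TTCNNNGAA, the letters of the interferon-gamma activated site, 97 bases before the start, which occur in 7.01% of all windows. The ratio of Psmb8 to Psmb5 per kilobase was 2.02, 5.71 and 5.87 with PBS, 0.557, 6.27 and 2.39 with EnzR EVs and 10.3, 7.80 and 5.94 with both agents, lowest in the 3 libraries with the most Rn45s. Psmb5 itself had 22.7, 9.32 and 8.81 CPM, then 60.4, 11.7 and 23.3 CPM, then 6.81, 7.69 and 8.94 CPM. The ratio of Psmb9 to its counterpart Psmb6 stayed between 0.254 and 0.619 in the 9 libraries and was 0.568, 0.619 and 0.586 with both agents, above the PBS values of 0.476, 0.512 and 0.420 without overlap. Psmb10, the remaining interferon-inducible catalytic subunit, had 70.9, 32.8 and 32.3 CPM with PBS, 149.8, 45.6 and 79.6 CPM with EnzR EVs and 44.6, 34.9 and 42.8 CPM with both agents, and was highest in the same 3 libraries as Tap2. The ratio of Psmb10 to its counterpart Psmb7 was 1.18, 0.504 and 0.501 with PBS and 0.611, 0.540 and 0.769 with both agents. It was 2.98, 0.582 and 1.34 with EnzR EVs, and the groups overlapped.

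Nlrc5 (chr8:94434356-94527272, plus strand), the class I transactivator, was the lowest of the 10 genes per kilobase, at 4.16 ± 1.16 CPM per kb in PBS mice (SD, n = 3). It had 21.6, 38.4 and 34.4 CPM in the PBS mice, 32.4, 78.3 and 46.5 CPM in the EnzR EV mice and 115, 65.9 and 93.0 CPM in the EnzR EVs + HDL NPs mice, from 59 counts in EnzR EVs replicate 1 to 2035 in EnzR EVs + HDL NPs replicate 1. All mice given both agents were above all PBS mice, and the EnzR EV mice overlapped with both other groups. Against PBS it was 2.87-fold higher with both agents (log2 fold change 1.52 ± 0.34, adjusted p = 0.9997 by edgeR and 0.0216 by DESeq2) and 1.68-fold higher with EnzR EVs (0.75 ± 0.33, adjusted p = 0.928 by edgeR). The latter fold change was 0.36 without EnzR EVs replicate 2 and 0.98 without EnzR EVs replicate 1, the lowest and highest with each library left out. DESeq2 run on every gene with a count gave an adjusted p of 0.0578 for the first of these, above the threshold. Between the EV-injected groups the log2 fold change was 0.77 ± 0.33 (adjusted p = 0.461 by edgeR). PBS replicate 1 and EnzR EVs replicate 1 were each the lowest mouse of their group. Without PBS replicate 1 the fold change of both agents against PBS was 1.32, and without both libraries the fold change between the EV-injected groups was 0.53. Ciita, the class II counterpart, had 6.16 to 12.8 CPM with PBS, 4.39 to 11.3 CPM with EnzR EVs and 8.88 to 14.0 CPM with both agents, with log2 fold changes of -0.11 ± 0.35 and 0.22 ± 0.33 against PBS.

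Among the tested genes outside the 10, those whose log2 CPM over the 9 libraries was most like that of Nlrc5 were Cfb, the complement factor B gene (Pearson r = 0.98), Eif2ak2, the kinase PKR that senses double-stranded RNA (0.97), Stat2 of the interferon receptor pathway (0.96), Trim21, an intracellular antibody receptor (0.96), and Gm12250 (0.96). Cfb had 2.64 to 6.58 CPM with PBS, 6.58 to 16.3 with EnzR EVs and 11.1 to 23.98 with both agents. For H2-T24 they were Zfp953 (0.95), the Ly6 family gene Ly6i (0.95), Bysl (0.90), Hmgb3 (0.90) and the antiviral gene Rsad2 (0.89). Rsad2 had 59.2 to 70.9 CPM with PBS, 105 to 178 with EnzR EVs and 111 to 154 with both agents. The correlation of Nlrc5 with H2-T24 was 0.76, with Tap1 0.75, with Psmb8 0.72, with H2-K1 and B2m 0.60 and with Psmb9 0.36. It was -0.13 with H2-D1, -0.44 with Tapbp and -0.52 with Tap2. The correlation of Tap2 with Tapbp was 0.98 and that of B2m with Tap2 -0.92. These values describe 9 libraries that share groups, depth and Rn45s content, and the most like genes were picked from all tested genes.

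The rest of the pathway was read from lists. Of 28 other class I and class I-like genes, 26 were in the counts and 11 passed the filter. By edgeR 0 of the 11 passed in any comparison, with 0, 1 and 1 at an unadjusted p under 0.05, where the shares of all tested genes were 3.47%, 2.13% and 10.6%, and DESeq2 called 0. Their median log2 fold changes were 0.16, 0.19 and -0.05 for EnzR EVs against PBS, both agents against PBS and both agents against EnzR EVs. The highest and lowest were H2-Q6 (0.77 ± 0.36) and Mr1 (-0.79 ± 0.62), which presents vitamin B metabolites, for EnzR EVs against PBS. For both agents they were H2-Q8 (0.89 ± 0.57) and Fcgrt (-1.14 ± 0.29), the neonatal Fc receptor that also pairs with B2m. Between the EV-injected groups they were the same genes, at 0.73 ± 0.59 and -0.71 ± 0.30. H2-Q8 was low, at 0.35 to 1.66 CPM with PBS, 0 to 2.18 with EnzR EVs and 2.10 to 2.62 with both agents, and at most 44 counts. H2-Q7 and H2-Q9 had 0 counts in every library. Stretches shared with other genes were not checked for the genes of this list. Fcgrt had 54.0, 33.8 and 45.9 CPM with PBS, 51.6, 21.2 and 30.4 CPM with EnzR EVs and 19.5, 21.9 and 19.1 CPM with both agents, below all PBS mice in the latter. With both agents against PBS, 3 of the 11 were lower and 1 higher without overlap, against 6.21% and 6.96% of all tested genes.

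Of 20 other processing and loading genes, 19 were tested, 0 passed by edgeR or DESeq2, and 1, 0 and 3 had an unadjusted p under 0.05 by edgeR, again against 3.47%, 2.13% and 10.6% of all tested genes. Their medians were 0.09, 0.06 and 0.01. The highest were Psmb10 (1.00 ± 0.42) for EnzR EVs against PBS, Psme2 (0.44 ± 0.30), a chain of the proteasome activator PA28, for both agents against PBS, and the peptidase gene Tpp2 (0.51 ± 0.31) between the EV-injected groups. The lowest in the same order were Lnpep (-0.25 ± 0.17), an endosomal aminopeptidase, Thop1 (-0.86 ± 0.50), a cytosolic peptidase, and Psme3 (-1.18 ± 0.43), a nuclear activator of the proteasome. Of the 7 constitutive proteasome beta subunits 0 passed by either tool, with 0, 0 and 2 at an unadjusted p under 0.05 by edgeR and medians of -0.06, 0.004 and 0.02. Psmb5 was their highest for EnzR EVs against PBS (1.17 ± 0.55) and their lowest in the other comparisons (-0.76 ± 0.54 and -1.93 ± 0.56), Psmb3 was the lowest in the first (-0.42 ± 0.47), and Psmb7 lay between 0.00 and 0.02 in all 3.

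Of 32 factors of class I promoters and regulators of the interferon pathway, all tested, 0 passed by edgeR or DESeq2, and 1, 2 and 1 had an unadjusted p under 0.05 by edgeR, against the same 3.47%, 2.13% and 10.6%. Their medians were 0.06, 0.10 and 0.08. The highest against PBS was Usp18, an inhibitor of interferon receptor signalling, at 0.80 ± 0.43 with EnzR EVs and 1.02 ± 0.43 with both agents, and the lowest were Nlrc3 (-0.59 ± 0.46) and Irf8 (-0.44 ± 0.31). Irf1, an activator of class I promoters, had 82.5, 129.99 and 122 CPM with PBS, 58.2, 166 and 107 CPM with EnzR EVs and 196, 181 and 164 CPM with both agents. It was the highest of the list between the EV-injected groups (0.69 ± 0.32), where Socs1 was the lowest (-0.77 ± 0.46). Irf7, which drives type I interferon genes, had 39.6, 66.7 and 63.3 CPM, then 30.7, 131 and 75.8 CPM, then 115, 104 and 88.9 CPM. In Irf1 and Irf7 all mice given both agents were above all PBS mice, and EnzR EVs replicate 1 was the lowest of the 9 libraries. Of the 32 genes, 6 were higher and 1 lower without overlap with both agents against PBS, against 6.96% and 6.21% of all tested genes. Irf2 overlapped between all groups (63.0 to 136 CPM). Of 9 interferon genes, 7 were in the counts and 2, Ifng and Ifnk, were tested. By edgeR and DESeq2 0 of them passed, with 0 at an unadjusted p under 0.05 by edgeR.

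Of 18 interferon-stimulated reference genes, chosen with earlier results of these libraries known, all were tested. By edgeR 0 passed, with 7, 12 and 3 at an unadjusted p under 0.05, against 3.47%, 2.13% and 10.6% of all tested genes, and DESeq2 called 2, 1 and 0, against 0.0876%, 0.0637% and 0.00797%. Those called were Ifit1 (2.04 ± 0.27, adjusted p = 4.03e-08 by DESeq2) and Rsad2 (1.12 ± 0.21, adjusted p = 0.00193 by DESeq2) for EnzR EVs against PBS, and Rsad2 (0.99 ± 0.21, adjusted p = 0.0216 by DESeq2) for both agents. Against PBS 17 of the 18 were positive with EnzR EVs and 18 with both agents, with medians of 0.87 and 1.08. Without overlap, 3 of the 18 were higher with EnzR EVs, against 3.43% of all tested genes, and 16 with both agents, against 6.96%. The difference between these counts was not tested. In the EnzR EV group, replicate 1, with the highest Rn45s share, was above every PBS mouse for 4 of the 18, against 35.7% of all tested genes, replicate 2 for 18, against 24.7%, and replicate 3 for 12, against 23.6%. Gbp2 was at 16.5, 106 and 54.6 CPM in these mice and at 15.0 to 25.1 CPM with PBS. Between the EV-injected groups 12 were positive, with a median of 0.42. The highest and lowest were Ifit1 and Mx2 (-0.24 ± 0.44) for EnzR EVs, and Gbp2 (2.04 ± 0.52) and Bst2 (0.31 ± 0.22) for both agents against PBS. Between the EV-injected groups they were Mx2 (1.08 ± 0.43) and Ifit1 (-0.90 ± 0.26). Mx2 is annotated as a polymorphic pseudogene in GRCm38.

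**Figure D5:**
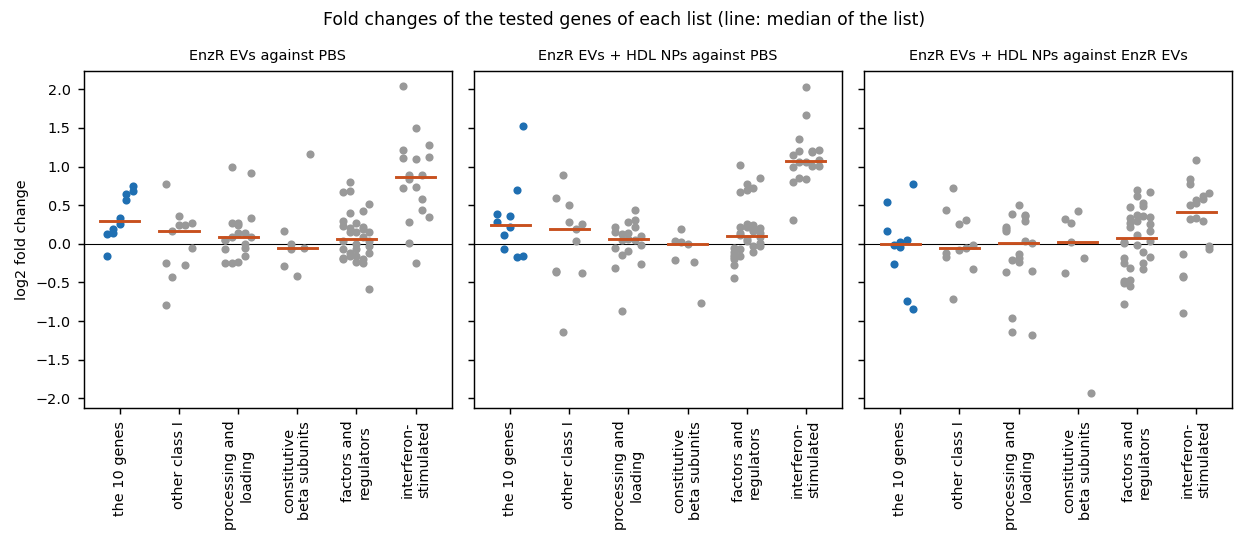
Log2 fold change of every tested gene in 6 lists, in the 3 comparisons; each point is a gene, blue for the 10 genes, and the orange line is the median of the list. The medians of the class I, processing, proteasome and regulator lists lie between -0.06 and 0.19, those of the 10 genes at 0.29, 0.25 and 0.003, and those of the interferon-stimulated genes at 0.87, 1.08 and 0.42.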

How the data were processed

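CD11b+ bone marrow cells of 9 mice, 3 per group, were profiled by stranded total RNA-seq. The authors deposited unnormalized counts of reads for each gene, made with cutadapt 1.13, STAR and HTSeq 0.6.1p1 on mm10 with the UCSC annotation. Groups and replicate numbers came from the labels, and 0 libraries were left out. Deviations from the group means of same-numbered PBS and EnzR EVs libraries had correlations of 0.473, 0.492 and 0.131, over 0.1 in all 3. These libraries were therefore also compared as pairs, but the main fit did not use the replicate number. The labels name no shared litter, batch or day. Replicate 1 of both groups had the lowest total and the highest Rn45s share of its group, so the correlations cannot tell pairing from such likeness. In the other comparisons not every pair was over 0.1 (-0.175 to 0.293).

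The counts were tested with edgeR 4.0.16 in R 4.3.3. TMM factors and the default filter, which kept 12553 of 23337 genes, were followed by a robust quasi-likelihood fit to all 9 libraries with 1 coefficient per group. Adjustment was by Benjamini-Hochberg over all tested genes, with a threshold of 0.05. DESeq2 1.42.0, the tool of the study, and limma 3.58.1 were alternatives, and each was tested on simulated data. The simulation gave every gene the same spread and set no library apart by its Rn45s share. It therefore cannot decide between the tools where their calls differ on these libraries. The prior count of log2 CPM was 2. PBS replicates 2 and 3, the most alike libraries of a group, were checked for duplication and differed beyond sampling noise (chi-square per gene 4.70). Floors of 3 counts cover counting error only, since reads have no molecular identifiers.

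The members and gene lists were chosen with earlier results of these data known. Named genes were all 10 members, list genes called by either tool, the highest and lowest of each list, the counterparts Psmb5, Psmb6, Psmb7, Psmb10 and Ciita, Irf1, Irf2, Irf7, Itgam, Csf3r and S100a8, and the 5 genes most like Nlrc5 and H2-T24; 1 further gene of this rule is not reported here. H2-T23, H2-M3, the single markers of other cells and the order of libraries by Rn45s were added after their values were seen. Gene positions and transcript lengths came from GENCODE M21 (GRCm38, the assembly of mm10), and promoters from RefSeq on GRCm38.p6, with the 50 transcribed bases of each window dropped. Alternatives covered the test, normalization, filter, the replicate block, Rn45s, the libraries of lowest total and each library left out.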

Additional observations from a re-analysis of the deposited data

How the results depend on the processing

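H2-T24 was higher than PBS under all 19 alternatives, by 0.46 to 0.72 on the log2 scale with EnzR EVs and 0.63 to 0.76 with EnzR EVs + HDL NPs, and passed the threshold in 3 of 19 each, both DESeq2 runs and limma voom with sample quality weights, with adjusted p between 2.74e-04 and 0.99999 and between 9.09e-05 and 1.00. Nlrc5 with both agents against PBS ranged from 1.23 to 1.71 and passed in 2 of 19, DESeq2 (adjusted p = 0.0216) and quality weights, with adjusted p up to 1.00. For EnzR EVs against PBS the count of all genes called, 0 by edgeR, was 11 by DESeq2, 14 by DESeq2 on every gene with a count (an alternative chosen after seeing the data), 1972 with quality weights, 1 without the filter on low counts, 5 without the 2 libraries of lowest total, and 0 to 2 with each library left out in turn, the latter without PBS replicate 1. For both agents against PBS it was 8, 2 and 8 by DESeq2, DESeq2 on every gene and quality weights, and for both agents against EnzR EVs 1, 1 and 639, with 1 also without the 2 libraries and on the 6 libraries of the comparison. Of the 10 genes, DESeq2 called 1, DESeq2 on every gene 1 and quality weights 4 (H2-T24, Tap1, Tap2 and Tapbp) for EnzR EVs against PBS, then 2, 1 and 2 for both agents against PBS, and quality weights 1 (Tapbp) between the EV-injected groups. The cause of these differences was not tested. The median of the 10 genes for EnzR EVs against PBS was 0.52 without the 2 libraries, and between the EV-injected groups it was 0.19 with library size only, where the median of all genes was 0.24, -0.20 without the 2 libraries, and -0.19 (without EnzR EVs replicate 1) to 0.11 with each library left out.

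Members with small fold changes turned direction. With library size only, Psmb8 was -0.0056 for EnzR EVs against PBS, and H2-K1 0.15 and Psmb9 0.16 between the EV-injected groups. With quality weights and without the 2 libraries of lowest total, Tap2 was 0.12 and 0.15, and Tapbp 0.078 and 0.13, for both agents against PBS, and Tap1 was -0.033 and -0.15 between the EV-injected groups. In that last comparison Psmb8 was -0.083 without the 2 libraries and Psmb9 0.012 without the filter. With each library left out, EnzR EVs against PBS ranged from -0.93 to 0.32 for B2m, -0.13 to 0.36 for Psmb8 and -0.017 to 0.40 for Psmb9. Both agents against PBS ranged from -0.21 to 0.035 for H2-D1, -0.33 to 0.14 for Tap2 and -0.31 to 0.13 for Tapbp, and both agents against EnzR EVs from -0.24 to 0.11 for H2-K1, -0.15 to 0.16 for Tap1, -0.081 to 0.41 for Psmb8 and -0.28 to 0.14 for Psmb9. Where a group was left with fewer mice, the fit assumed the spread of the others.

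With the replicate block, 1 gene was called for EnzR EVs against PBS and Psmb9 was 0.0050 between the EV-injected groups. The replicate block changed no other call, and over all 3 groups 5 of 9 libraries correlated best with their own number. Depth was lowest in EnzR EVs replicate 1, with 49 counts of Psmb9 and 59 of Nlrc5.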
